A study of Mus musculus with 19 samples.

Results

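LTR retrotransposons are repeats of retroviral origin that make up a large share of the mouse genome. Each intact copy carries an internal region, named with the ending -int in the annotation of repeats, and a long terminal repeat (LTR) on either side of it. The internal region codes for viral proteins in some families and not in others. The LTR holds a promoter, and many copies survive only as a solitary LTR. Trimethylation of lysine 4 on histone H3 (H3K4me3) marks promoters in use, and CpG methylation is a known means by which somatic cells silence retrotransposons. The visceral yolk sac (VYS) is an extra-embryonic tissue of an outer endoderm layer (ysE), which absorbs and secretes for the embryo, and an inner mesoderm layer that carries the blood islands.

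The regions described here are the 1145 H3K4me3 peaks of E12.5 VYS that were shorter than 4000 bp and overlapped an annotated LTR element by at least 100 bp, among 21971 peaks of that length and 22343 in all. The peaks were chosen by the H3K4me3 signal and by position, so their number and the repeat names under them are given as descriptions with no test. RNA and methylation took no part in the choice. The ChIP tissue was whole VYS, however, of which ysE is a layer, so the choice was not neutral between tissues. Whether it favoured ysE over tissues outside the VYS in the comparisons below was not tested. The peaks overlapped 1404 of the 719065 LTR elements in the repeat table, in 1426 peak and element pairs. A single element lay under 926 of the peaks and at least 2 elements under the other 219, with a maximum of 6. Elements up to 1 kb apart formed 1094 loci, and whether neighbours belong to the same insertion was not tested.

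The H3K4me3 peaks came from 1 ChIP library and 1 input library of whole VYS from FVB mice at E12.5, made from 20 yolk sacs of 2 litters. Reads on repeats came from 6 libraries of RNA depleted of ribosomal RNA: ysE and VYS mesoderm of FVB mice at E9.25 (replicates A and B of each, both layers parted by hand after dispase and pooled over a litter), and cystic embryoid bodies (EBs) at d10 and d15 from 1 ES cell clone (JN, background C57Bl/6x129). Cystic EBs are fluid-filled spheres that ES cells form in suspension, with an endoderm-like outer layer. Gene counts came from 11 libraries, which add E12.5 ysE (1), E12.5 liver (2), both FVB, and a second C57Bl/6x129 clone of cystic EBs (A9, d10 and d15). Methylation came from 6 whole genome bisulfite (WGBS) libraries of E12.5 ysE, E12.5 liver and d15 cystic EBs, with 1 library of either cross of Cast and FVB (CxF and FxC) per tissue, the cystic EBs coming from ES clones of these crosses. No group carried a mutation or a drug. Tissue and strain background cannot be told apart between ysE and cystic EBs in RNA, and the ChIP (E12.5, whole VYS) was made at a later stage than the RNA of the repeat table.

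The repeat table held 86063967 to 188223399 reads per library, of which 65.9% to 79.4% fell on repeats of RNA genes, and 59640 to 112114 reads per library fell on the elements under the peaks. WGBS libraries held 6695942 to 11554658 reads at CpGs. The summed RPKM of 6 ysE markers (Afp, Ttr, Apoa4, Cubn, Amn and Hnf4a) was 8790 to 9801 for ysE at E9.25, 961 to 1704 for mesoderm and 101 to 1081 for cystic EBs. The summed RPKM of 6 mesoderm markers was 33.3 to 52.3 in E9.25 ysE and 1008 to 1140 in mesoderm, with Pitx1 the single member higher in ysE. That of 5 erythroid markers was 522 to 604 and 20325 to 25228, each member being higher in mesoderm. Macrophage markers (3) summed to 2.20 to 2.83 and 4.56 to 5.24, although Cd68 had 1.2 and 1.57 in E9.25 ysE and 0.709 and 1.25 in mesoderm. Hepatocyte markers (3) summed to 0.926 to 1.37 in E9.25 ysE, 236 in the E12.5 ysE library (Ahsg 152, Alb 80.5) and 409 to 890 in liver. The summed RPKM of 4 pluripotency markers was 79.1 to 317 in cystic EBs and 5.26 to 6.09 in E9.25 ysE, with each member higher in cystic EBs. Whether these other cell types take part in the differences below was not tested.

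At 59 annotated transcription start sites of 52 genes, the start itself lay inside one of 50 LTR elements under the peaks, and at 49 of these sites it also lay in the peak. This positional rule was added after the data had been seen. The 250 bases upstream of 7 such starts are printed 5′ to 3′ from RefSeq (GRCm38.p6, the assembly of mm10), for genes and elements that return below. The elements at the starts of Apobec1 and B130016D09Rik are internal regions (-int), and those of the others are not. CpG dinucleotides are in capitals. The median number of CpGs in the 250 upstream bases was 4 at the 59 sites and 6 over 32851 annotated starts.
Nxf7: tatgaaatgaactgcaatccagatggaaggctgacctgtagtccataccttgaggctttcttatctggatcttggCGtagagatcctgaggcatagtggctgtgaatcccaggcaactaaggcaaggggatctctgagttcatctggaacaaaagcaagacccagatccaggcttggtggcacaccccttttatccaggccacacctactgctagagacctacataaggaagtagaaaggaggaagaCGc
Tdrd7: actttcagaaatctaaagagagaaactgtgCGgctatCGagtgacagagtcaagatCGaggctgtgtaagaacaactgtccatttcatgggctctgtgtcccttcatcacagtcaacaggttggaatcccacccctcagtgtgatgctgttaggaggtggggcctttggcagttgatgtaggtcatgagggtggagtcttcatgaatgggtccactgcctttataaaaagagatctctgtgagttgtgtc
Tfpi2: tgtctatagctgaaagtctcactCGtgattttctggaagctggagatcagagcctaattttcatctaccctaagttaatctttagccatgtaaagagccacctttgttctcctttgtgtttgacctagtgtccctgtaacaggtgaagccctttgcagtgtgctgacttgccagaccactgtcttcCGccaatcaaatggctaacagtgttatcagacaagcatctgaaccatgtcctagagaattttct
Apobec1: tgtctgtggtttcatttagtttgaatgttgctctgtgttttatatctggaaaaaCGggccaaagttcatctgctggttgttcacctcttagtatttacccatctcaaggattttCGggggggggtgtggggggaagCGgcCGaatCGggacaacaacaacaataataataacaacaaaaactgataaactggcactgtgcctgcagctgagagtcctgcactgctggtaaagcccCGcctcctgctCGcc
Gm32885: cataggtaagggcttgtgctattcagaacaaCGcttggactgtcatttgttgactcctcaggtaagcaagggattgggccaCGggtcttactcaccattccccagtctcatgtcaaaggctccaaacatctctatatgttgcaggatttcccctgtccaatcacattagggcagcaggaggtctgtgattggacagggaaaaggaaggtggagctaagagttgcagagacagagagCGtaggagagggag
B130016D09Rik: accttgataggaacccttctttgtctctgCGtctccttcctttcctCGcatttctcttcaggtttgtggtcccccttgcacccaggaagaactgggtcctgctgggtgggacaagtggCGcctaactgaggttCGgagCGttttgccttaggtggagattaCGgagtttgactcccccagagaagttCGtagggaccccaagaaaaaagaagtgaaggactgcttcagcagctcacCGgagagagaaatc
Gm42298: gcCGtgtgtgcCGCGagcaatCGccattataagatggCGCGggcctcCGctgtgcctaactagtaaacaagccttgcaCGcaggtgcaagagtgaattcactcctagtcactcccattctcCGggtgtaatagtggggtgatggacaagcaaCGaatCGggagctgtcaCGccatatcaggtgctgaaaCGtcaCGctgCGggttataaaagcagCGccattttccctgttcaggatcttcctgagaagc

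The sequence of Nxf7 is the minus strand of chrX:135598782-135599031 in an MT2C_Mm element, and that of Tdrd7 is the plus strand of chr4:45965085-45965334, with 158 of its bases in an MLT1A0 element. Tfpi2 is shown from the minus strand of chr6:3988859-3989108 (217 bases in RMER5) and Apobec1 from the minus strand of chr6:122602445-122602694 (all in RLTR19-int). Gm32885 is shown from the minus strand of chr15:97167245-97167494 (114 bases in MLTR31F_MM) and B130016D09Rik from the plus strand of chr7:142283213-142283462 (137 bases in ERVB4_1-I_MM-int). Gm42298 is shown from the plus strand of chr4:71381719-71381968, all in an IAPEY_LTR copy whose peak ends at position 71381763. The IAPEY_LTR sequence held 16 CpGs and those of Nxf7 and Tfpi2 held 2 each.

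LTR peaks made up 5.21% of the peaks under 4000 bp (exact 95% interval 4.92% to 5.51%, counting error only). By the same rule 517 peaks (2.35%) overlapped a LINE and 2431 (11.1%) a SINE. Among all elements of a class in the table, 0.195% of LTR elements lay under a peak. The lengths of the longest LTR peaks were 3853, 3874 and 3986 bp, and the shortest peaks over an LTR left out by length had 4060, 4166 and 4258 bp. The overlap rule kept 115 peaks with 100 to 119 bp of LTR and left out 114 with 80 to 99 bp.

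Most LTR peaks lay away from the start sites in the list used. The nearest listed start lay over 1 kb away from 682 peaks (59.6%) and within 1 kb of 430 (37.6%). Of the peaks without an LTR, 57.8% had a listed start within 1 kb. The list was not complete. It put the peak at chr1:180903736-180905381 17878 bp from a start, although the span of Lefty2 (chr1:180893108-180899107) lay 4629 bp from that peak. Some peaks called distal here may thus lie near a start that was not listed. The remaining 33 peaks, nearly all on chromosome 18, were not placed against start sites. The 682 distal peaks had a median MACS score of 209 (the score is -10 log10 of the p-value against input), a median length of 652 bp and a median LTR share of 47.9% of the peak. The 430 peaks near a start had a median score of 2563, a median length of 1692 bp and a median LTR share of 12.9%. The LTR covered more than 50% of the peak in 330 distal and 49 near peaks, so the name of the group describes the sequence of 34.1% of its peaks and a minor part of the sequence of the others.

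Scores could not rank the strongest peaks. Of the LTR peaks, 223 shared the score 3100 (173 near a start and 46 distal), as did 4902 of all peaks under 4000 bp, and 8 had a higher one, so the order among these is not determined. The highest listed value, 3230.05, was at chr10:85183304-85186077 over a start site, with an MTD copy in 7.39% of it. MT2B2 (chr6:124964400-124966584, 3224.61), MTD (chr14:118704513-118707504, 3211.22), ORR1D2 (chr19:53390754-53391895, 3201.08) and RLTR22_Mus (chr5:109922297-109924509, 3190.94) led the next 4 by listed score, each with its start site in the peak or 120 bp away. MER57C2 led the peak at chr19:10182279-10184868 (3178.14), 19053 bp from the nearest listed start site. The LTR share of these 6 peaks ran from 4.48% to 36.5%.

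By family, ERVK elements were 42.6% of the elements under peaks (598) and 34.4% of all LTR elements in the table, a ratio of shares of 1.24. ERV1 elements were 21.5% (302) and 8.11% of all, a ratio of 2.65. ERVL elements stood at 12.6% (177) against 11.8%, a ratio of 1.07. The MaLR elements, a numerous group of non-autonomous LTR repeats, were 22.1% (310) against 44.9%, a ratio of 0.491. Of the 598 ERVK elements, 447 lay under distal peaks, compared with 148 of the 302 ERV1 elements. Under an overlap of at least 50% of the peak the ratio of ERVK was 1.85, and by share of base pairs it was 0.981, so whether ERVK is above its share depends on the measure. With the same overlap ERVL fell below its share, at 0.473, and MaLR had 0.248.

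The 1404 elements carried 355 of the 674 LTR names in the table. IAPEy-int, the internal region of an intracisternal A particle (IAP) subfamily, stood out among the common names, with 46 of its 730 copies under a peak (6.30%, exact 95% interval 4.65% to 8.32%) against 0.195% of all LTR elements. These shares are per copy, and a longer copy has more sequence that can overlap a peak. The IAPEy-int copies under peaks had a median length of 1054 bp, against 333 bp for all LTR elements under peaks. They held 2.89% of the base pairs of IAPEy-int, while all LTR elements under peaks held 0.321% of LTR base pairs, a smaller contrast. All but 1 of the 46 lay under distal peaks, and the other was on chromosome 18. IAPEY_LTR, the LTR of the same subfamily, had 30 of 1340 copies under a peak (2.24%). The 76 IAPEy-int and IAPEY_LTR elements came from 47 loci. MMVL30-int, the internal region of the virus-like VL30 elements, had 41 of 815 (5.03%), in 29 loci. Among names with at least 5 elements under peaks, the highest share was that of IAPEY4_LTR, at 9 of 77 copies (11.7%, 5.49% to 21.0%), followed by IAPEy-int, RLTR48B (5 of 93), MMVL30-int, LTR65 (5 of 109) and RLTR1D (8 of 256).

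**Figure D1:**
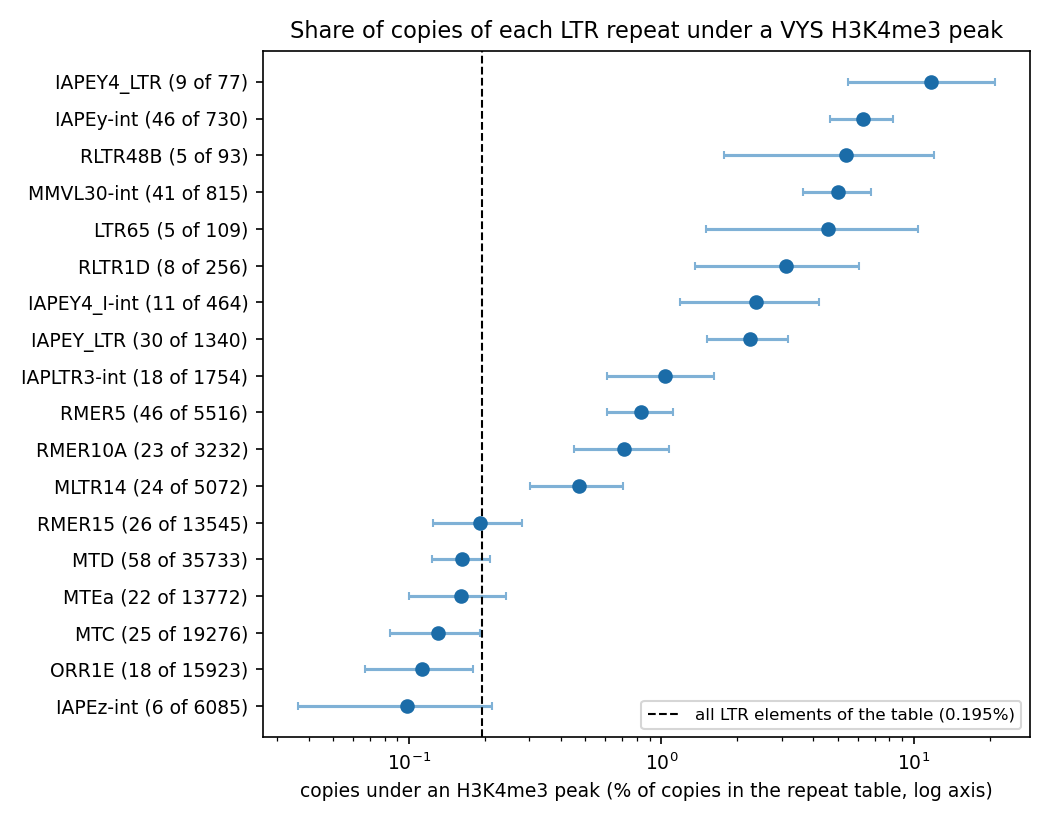
Percent of the copies of each LTR repeat that lay under a VYS H3K4me3 peak, on a log axis, for the names with the most copies under peaks or the highest ratio of shares and for IAPEz-int. Bars are exact 95% binomial intervals (counting error only), and the dashed line is the share of all LTR elements, 0.195%, with IAPEY4_LTR at 11.7% and IAPEz-int at 0.0986%. Shares are per copy, with no allowance for the length of the copies.

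The names with the most elements were a mix. MTD, a MaLR repeat with 35733 copies, had the most elements under peaks (58), at a share of 0.162% that was below that of all LTR elements. RMER5 had 46 of 5516 (0.834%), of which 34 lay near a start site, the reverse of IAPEy-int. RMER15 (26), MTC (25), MLTR14 (24), RMER10A (23), MTEa (22), IAPLTR3-int (18) and ORR1E (18) followed. IAPEz-int, the internal region of the most numerous IAP subfamily, had 6 of 6085 copies under a peak (0.0986%).

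RNA reads were counted on 1369 of the 1404 elements (97.5%), compared with 78.4% of all LTR elements, and 35 elements had no read in any of the 6 libraries. Counts were low, with a median of 31 reads over the 6 libraries. The filter on low counts left 617 of the 1404 (43.9%), against 8.94% of all LTR elements, so the tests below describe these 617 and say nothing of the other 787. The handling of reads that map to several copies is not given in the sources used here, and reads of young repeats such as IAPEy can come from other copies. An element can also share its reads with a gene: 454 of the 1404 elements (32.3%) lay in a gene span of RefSeq, against 14.9% of all LTR elements, although the table is described as intergenic.

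Summed over all 1404 elements, with TMM scaling, reads came to 874 and 900 CPM (counts scaled to the same library size) in ysE A and B, 692 and 673 in mesoderm, and 473 and 541 in cystic EBs. The TMM factors were 0.838 and 0.674 in ysE A and B, 0.987 and 1.12 in mesoderm, and 1.52 and 1.06 in d10 and d15 cystic EBs. The order of the tissues in CPM depends on these factors. By the same scaling, LTR elements without a peak were also highest in ysE, at 0.567 and 0.585 CPM per kb, with 0.436 and 0.424 in mesoderm. In cystic EBs they had 0.491 and 0.456. Of all LTR reads, the 1404 elements held 0.623% in both ysE libraries and 0.642% and 0.643% in mesoderm, so by this share ysE was not above mesoderm. In cystic EBs they held 0.39% and 0.481%. The names differed widely. RMER5 copies under peaks had 9.07 and 11.3 CPM in ysE, 31.9 and 10.6 in mesoderm, and 8.53 and 16 in cystic EBs, with overlapping groups. Reads on IAPEy-int copies under peaks were most numerous in ysE. Summed over the 46 copies they came to 136 and 105 CPM in ysE A and B, 16.7 and 24.6 in mesoderm A and B, and 3.83 and 4.07 in d10 and d15 cystic EBs. The groups did not overlap, and the mean in ysE (120 ± 21.9, SD, n = 2) was 5.84-fold that of mesoderm (20.6 ± 5.59) and 30.5-fold that of cystic EBs (3.95 ± 0.17). The 46 copies held 2.89% of the base pairs of IAPEy-int but 35.3% and 34.4% of its reads in ysE, 15.8% and 26.0% in mesoderm, and 16.8% and 16.2% in cystic EBs. Of the 46 copies, 38 to 40 had a read in each ysE and mesoderm library and 29 to 31 in cystic EBs.

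The LTR of the same subfamily followed this order. IAPEY_LTR copies under peaks summed to 16.8 and 13.7 CPM in ysE, 2.82 and 3.32 in mesoderm, and 0.999 and 1.29 in cystic EBs, or 4.97-fold and 13.3-fold higher in ysE. MMVL30-int copies summed to 70.7 and 63.4 CPM in ysE, 48.6 and 37.1 in mesoderm, and 13.0 and 13.3 in cystic EBs. The gap between ysE and mesoderm was smaller for MMVL30-int (1.56-fold) than the 5.10-fold gap to cystic EBs, and with TMM scaling the groups did not overlap in either case. As a share of all LTR reads, however, MMVL30-int was lower in ysE B (7902 of 17993938 reads) than in mesoderm A (4791 of 10629997). On that measure ysE and mesoderm overlapped. A single copy held 1933 of the 4791 MMVL30-int reads of mesoderm A, while the median copy had 34 and 35 reads in ysE and 13 and 16 in mesoderm. MMVL30-int copies without a peak had the same order, at 0.659 and 0.654 CPM per kb in ysE and 0.412 and 0.357 in mesoderm. In cystic EBs they had 0.214 and 0.219. IAPEy-int copies without a peak had 0.112 and 0.0902 in ysE and 0.0401 and 0.0315 in mesoderm. In cystic EBs these had 0.00854 and 0.00944, again the same order.

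IAPEY4_I-int ran the other way. Its 11 copies under peaks summed to 64.5 and 58.1 CPM in ysE, 202 and 190 in mesoderm, and 88.5 and 188 in cystic EBs, so that ysE stood at 0.313 of mesoderm and 0.443 of cystic EBs. All 11 copies had a fitted difference below 0 against mesoderm (median log2 -1.81), with none past the threshold, and 8 of 11 against cystic EBs. The 228 tested copies of IAPEY4_I-int without a peak had a median log2 difference of 0.47 from mesoderm, and 28 of them were called higher in ysE.

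**Figure D2:**
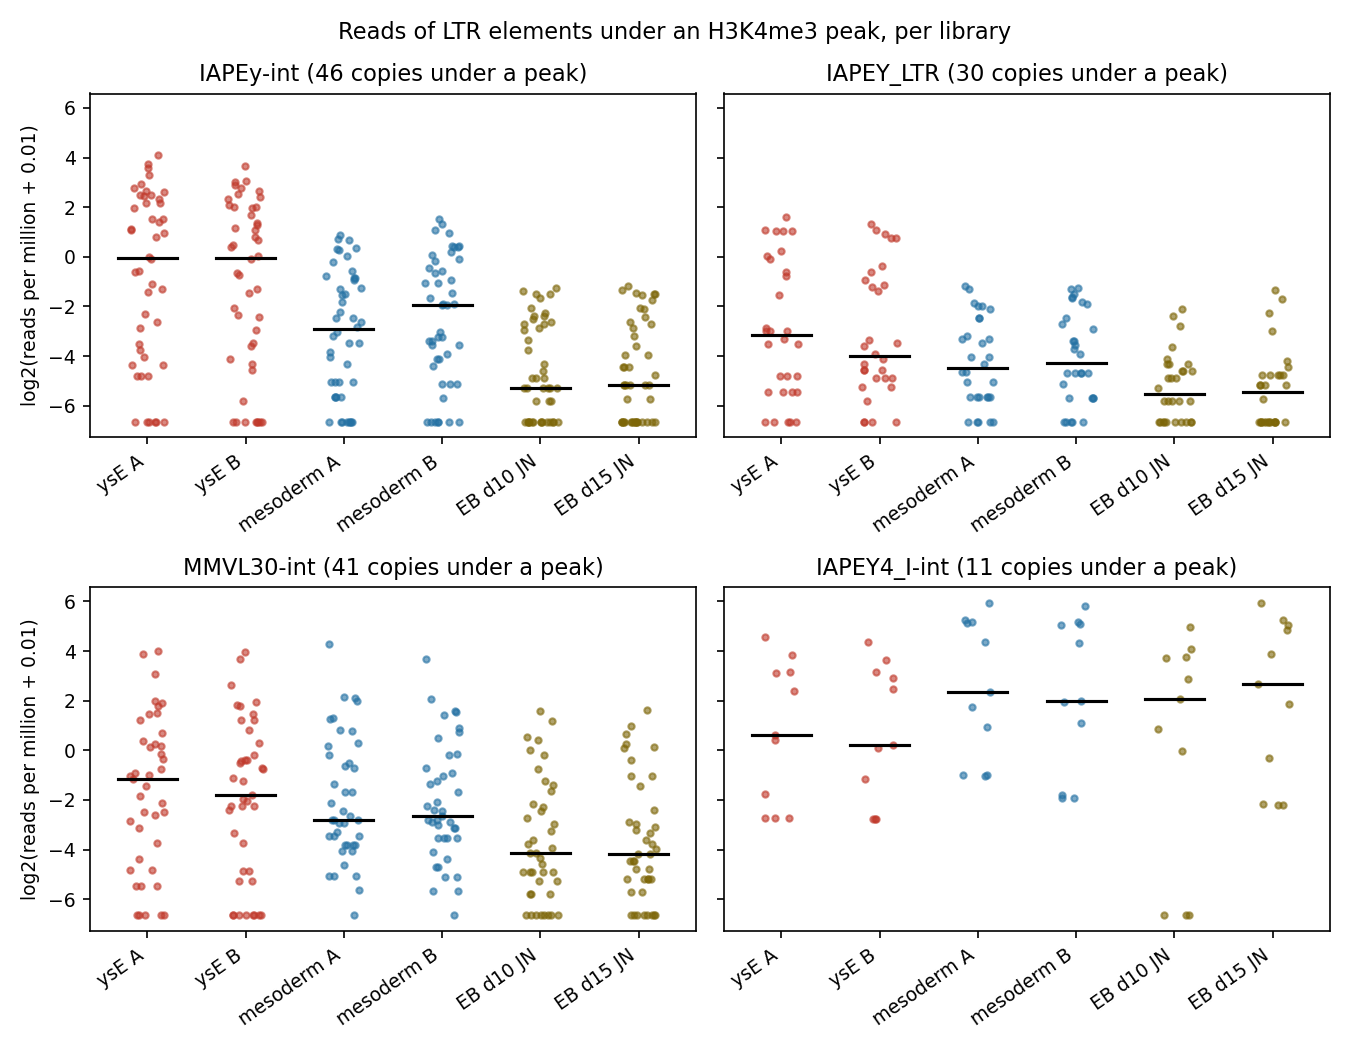
CPM of each copy under a peak in each of the 6 RNA libraries, as log2(CPM + 0.01), for 4 repeat names, with 1 point per copy and a bar at the median. Points at the floor are copies with no read. IAPEy-int and IAPEY_LTR were highest in both ysE libraries and lowest in cystic EBs, MMVL30-int medians had the same order, and IAPEY4_I-int was lowest in ysE.

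Tested one by one against mesoderm by edgeR's quasi-likelihood test, 6 of the 617 elements were higher and 1 lower in ysE at an FDR of 5%. These are 0.972% and 0.162% of the elements tested, beside 0.957% higher and 0.282% lower over all 239554 repeat elements tested. At an unadjusted p under 0.05 there were 171 higher (27.7%) and 50 lower (8.1%), beside 13.9% and 10.1% of all elements tested. None of the 6 calls remained with any library left out, 15 (2.43%) were made with another scaling of the libraries, beside 1.22% of all, and the fit with the replicate block called none. The replicate block also called none in the whole table. Without 1 library the log2 differences of the 6 elements ran from 2.38 to 5.39, and that of the lower one from -3.88 to -3.27. DESeq2 called 142 of the 617 higher (23.0%) and 24 lower (3.89%), beside 11.3% and 3.17% of all, so the number of calls depends on the method and single elements are given as values.

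The largest difference was at an ORR1D2 copy (chr1:181145204-181145531, under a peak at a start site), with 725 and 1380 reads in ysE, 37 and 27 in mesoderm and 39 and 34 in cystic EBs. Its log2 difference from mesoderm was 5.01 (SE 0.35; edgeR's quasi-likelihood test, Benjamini-Hochberg adjusted p = 0.0418). RLTR1B-int (chr4:156149564-156151676) had 176 and 230 reads in ysE, 14 and 18 in mesoderm, and 140 and 109 in cystic EBs, and was called against mesoderm only. MLTR31F_MM (chr15:97166837-97167358), the element at the start of Gm32885 shown above, had 108 and 141 reads in ysE, 12 in each mesoderm library, and 12 and 8 in cystic EBs (log2 3.40, SE 0.43). IAPLTR1_Mm (chr4:117192125-117192477, log2 2.78), RLTR1D (chr6:90231946-90232540, 2.63) and an IAPEy-int copy (chr1:48738189-48740907, 2.47) were the others, each without overlap between the libraries of the groups.

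A single element was called lower, an RLTRETN_Mm copy (chr1:134405271-134405591) under a peak at a start site. It had 57 and 82 reads in ysE, 667 and 1106 in mesoderm, and 953 and 496 in cystic EBs, and differed from mesoderm by a log2 of -3.63 (SE 0.42).

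Against cystic EBs the calls were more numerous. Of the 617 elements, 111 were higher (18%) and 14 lower (2.27%) in ysE by edgeR's quasi-likelihood test at an FDR of 5%, beside 8.63% higher and 3.4% lower over all repeat elements tested. The 111 came from 78 loci. The higher calls were 99 of 341 elements under distal peaks (29.0%) and 10 of 256 near a start site (3.91%), and 81 of the 388 elements outside gene spans (20.9%). LTR elements without a peak had 8.55% higher and 4.65% lower. No call was made when any 1 of the 6 libraries was left out, in these elements or in the whole table, while 159 to 222 elements under peaks (21.4% to 29.8%) were then higher at an unadjusted p under 0.05, beside 11.4% to 15.7% of all elements in these fits. DESeq2 called 175 higher (28.4%) and 35 lower (5.67%), beside 16.9% and 7.23% of all, and the fit with the replicate block called none.

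By name, IAPEy-int had 25 of 32 tested copies higher in ysE than in cystic EBs, with a median log2 difference of 4.91, and its copies without a peak had 60 of 106 and a median of 3.99. IAPEY_LTR had 7 of 12 (14 of 73 without a peak) and MMVL30-int 15 of 31 (69 of 234). The 32 IAPEy-int and IAPEY_LTR calls came from 20 loci and the 15 MMVL30-int calls from 10. Smaller names were IAPEY3-int, with 2 of 3 (2 of 135 without a peak), and MMERGLN-int, with 3 of 7 (7 of 139). IAPEY4_I-int had 2 lower and none higher among 11. The filter on low counts acted on all of these, and whether copies under a peak differ from the other copies of their name was not tested.

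At single copies, an IAPEy-int element on chr2:157655353-157656031 had 165 and 163 reads in ysE, 27 and 37 in mesoderm and none in either cystic EB library, at least 128-fold higher than the floor of 3 counts over both EB libraries. At chr3, a run of 3 adjoining elements lay under 3 peaks. The IAPEY_LTR of this run (chr3:51101054-51101437) had 238 and 313 reads in ysE, 39 and 42 in mesoderm, and 6 and 3 in cystic EBs. The next element, IAPEy-int at chr3:51101438-51102116, had 586 and 779, 54 and 97, and 3 and 0 reads in the same order, a ratio to cystic EBs of 535 with a counting interval of 183 to 2596. The last, IAPEy-int at chr3:51102117-51104835, had 1333 and 1566 reads in ysE, 163 and 301 in mesoderm, and 39 and 37 in cystic EBs.

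The other large differences included an MMVL30-int copy (chr7:106617423-106617680, 70 and 93 reads in ysE, 12 and 13 in mesoderm and none in cystic EBs, at least 63.8-fold). RMER15 and ORR1F, which lie side by side under the peak at chr6:115716736-115717826, had 48 and 122 and 46 and 119 reads in ysE with none in cystic EBs, and as neighbours they are not independent. An IAPEy-int copy on chromosome 18 had 51 and 74 reads in ysE, 2 and 12 in mesoderm and none in cystic EBs.

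Among elements lower in ysE than in cystic EBs, RMER17A-int (chrX:103026285-103026733) had no read in ysE, 4 and 3 in mesoderm, and 29 and 63 in cystic EBs, at least 26.1-fold lower in ysE. RLTR12B and RLTR34D_MM, under the same peak at chr1:46066376-46067355, had no read in ysE and 14 to 22 in each cystic EB library. RLTR30 (chr1:180903688-180904000) had no read in ysE, 15 and 40 in mesoderm, and 19 and 13 in cystic EBs. ERVB4_1-I_MM-int (chr7:142283326-142286984), the element at the start of B130016D09Rik shown above, had 8 and 14 reads in ysE, 71 and 42 in mesoderm, and 186 and 264 in cystic EBs (log2 -4.14, SE 0.54). RMER15 at chr9:31385365-31385902 had 1 read in each ysE library and 26 and 13 in cystic EBs, a ratio of 0.0603 (0.00705 to 0.233).

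The elements with the most reads were not those with the largest differences. MMETn-int (chr4:4237761-4242129) had 2848 and 3772 reads in ysE, 3186 and 4677 in mesoderm, and 13974 and 6684 in cystic EBs, with no call in either comparison. IAPEz-int at chr15:73083462-73087600, which is 1 of the 6 IAPEz-int copies under a peak, had 5405 and 7232 reads in ysE, 562 and 1118 in mesoderm, and 1155 and 1507 in cystic EBs. Its log2 difference in the edgeR quasi-likelihood fit was 2.96 from mesoderm (SE 0.40, Benjamini-Hochberg adjusted p = 0.0524) and 2.49 from cystic EBs (SE 0.39, adjusted p = 0.0261). The other 4 of the 6 elements with the most reads were IAPEY4_I-int copies of 7058 to 7667 bp.

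In ysE the DNA of the LTR peaks was less methylated than in liver and cystic EBs. The median over peaks with at least 5 reads was 27.7% (CxF) and 25% (FxC) for ysE. The liver libraries were at 50% (CxF) and 57.1% (FxC), and cystic EBs at 64.3% and 60.0%. The means were 26.4% ± 1.91 for ysE, 53.5% ± 5.02 for liver and 62.1% ± 3.04 for the EBs (SD, n = 2 each), gaps larger than the spread between replicate libraries. Each median rests on 453 to 581 of the 1145 peaks and on a median of 10 to 13 reads per peak, and these peaks are not the same in every library. With reads pooled over peaks the means were 35.9% ± 1.13 (ysE), 56.1% ± 5.66 (liver) and 60.5% ± 2.76 (cystic EBs). On the 143 LTR peaks tested one by one below, the median difference of ysE was -15.7 points from liver and -19.0 from cystic EBs. In the 2594 other peaks tested it was -10.1 and -13.0. Over all CpG reads, ysE was also the least methylated tissue, at 67.8% and 60.1%, against 77.6% and 79.8% for liver and 87.0% and 82.6% for the EBs. No p is given, since the smallest that an exact permutation test (two-sided) allows for such groups of 2 is 0.333.

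The level was higher where the LTR filled more of the peak and where the peak was distal. Peaks near a start site had 19.5% ± 0.707 (ysE), 34.9% ± 2.97 (liver) and 40.2% ± 3.82 (cystic EBs). Distal peaks had 39.4% ± 4.10, 73.2% ± 2.55 and 79.2% ± 5.16. Peaks covered by LTR over more than 50% of their length had 59.2% ± 2.05, 82.4% ± 0.849 and 86.1% ± 3.96. Distal peaks without an LTR were lower in all 3 tissues, at 22.5% ± 3.54, 46.5% ± 5.02 and 58.7% ± 3.96, and peaks near a start without an LTR had 16.7%, 30.3% ± 4.24 and 34.8% ± 2.19 (SD, n = 2 each throughout). When the reads were limited to the LTR sequence within the peak, the medians were 55.0% ± 7.07 (ysE), 83.8% ± 2.76 (liver) and 85.5% ± 7.71 (cystic EBs).

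In the 500 bp bin just before the centre of distal LTR peaks, ysE had 52.2% and 49.3% of its CpG reads methylated. In the outermost bin on that side, centred 4750 bp away, ysE stood at 69.3% and 60.7%. Liver had 74.4% and 76.0% at the centre against 76.4% and 80.9% in the outer bin. The EBs had 80.8% and 74.7% against 85.8% and 81.6%. On this side all 6 libraries were lower at the centre. On the other side the central and outer bins had 56.7% and 68.6% in ysE CxF but 54.6% and 56.2% in FxC, 69.8% and 73.0% (CxF) and 78.2% and 79.1% (FxC) in liver, and 82.4% and 81.8% (CxF) and 77.5% and 77.6% (FxC) in the EBs. Against the outermost bins the fall towards the centre was thus uneven between the sides. Against the bin centred 1250 bp after the centre, the central bin on that side was lower in all 6 libraries. For ysE it had 56.7% against 70.9% (CxF) and 54.6% against 67.3% (FxC). The size of the fall was not tested between tissues. At peaks near a start the central bin was at 23.7% and 22.3% for ysE, 28.5% and 38.2% for liver, and 40.9% and 34.7% for the EBs, far below the outer bin in every library and on either side.

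**Figure D3:**
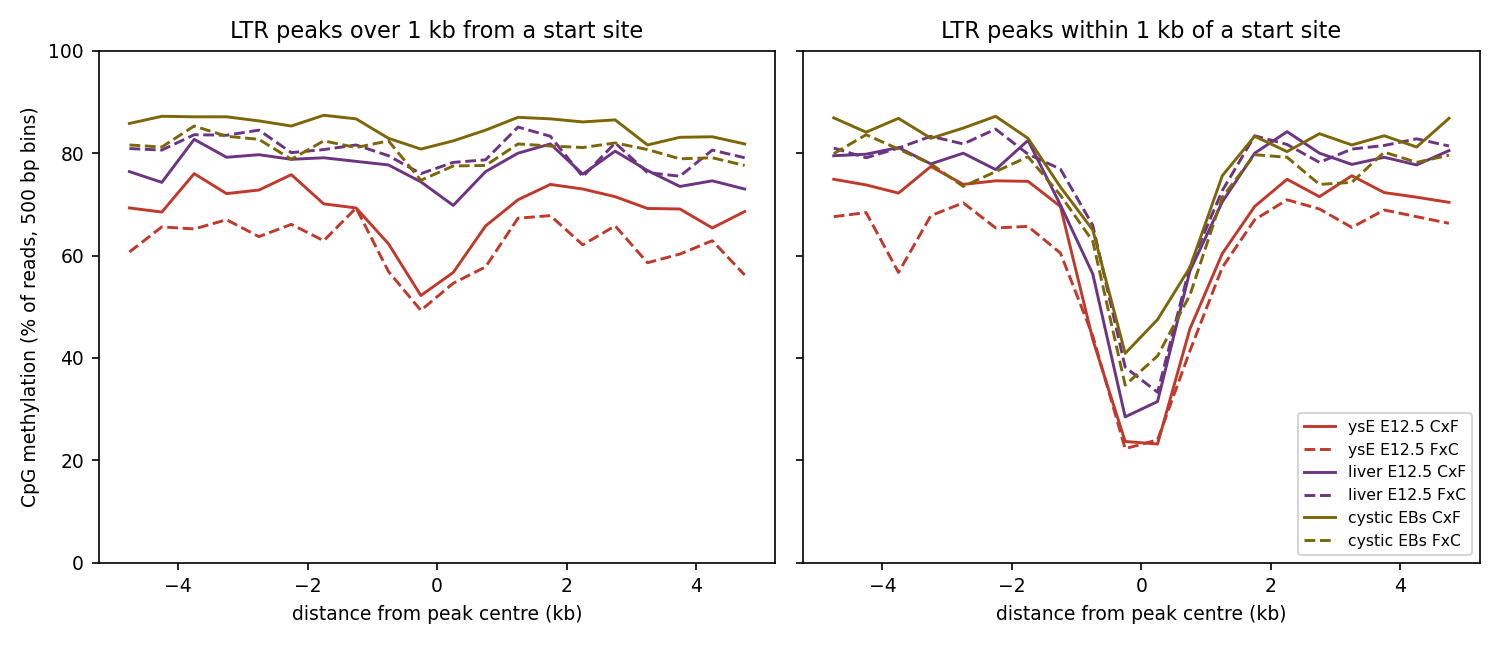
Percent of methylated CpG reads in 500 bp bins from 5 kb before to 5 kb after the peak centre, for distal LTR peaks (left) and LTR peaks within 1 kb of a start site (right), with 1 line per WGBS library and the FxC cross dashed. At distal peaks the ysE lines are at 52.2% and 49.3% just before the centre and those of liver and cystic EBs at 74.4% to 80.8%, and at start sites all lines dip.

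Peak by peak no call was made. Of the 1145 peaks, 143 had at least 5 reads in each of the 6 libraries. By edgeR's quasi-likelihood test on methylated and unmethylated reads, none of the 143 passed an FDR of 5% against liver (smallest adjusted p = 0.199) or cystic EBs (smallest adjusted p = 0.0853). Over all 2737 peaks tested, 0.183% passed against liver and 0.329% against cystic EBs. At an unadjusted p under 0.05, 15 of the 143 were lower (10.5%) and 1 higher (0.699%) in ysE than in liver, beside 7.71% and 0.621% of all peaks tested. Against cystic EBs 14 were lower (9.79%) and 1 higher, beside 10.1% and 0.548% of all, so these shares were near the background. Both ysE libraries lay below both liver libraries in 53 peaks (37.1%, beside 32.9% of all peaks tested) and below both cystic EB libraries in 59 (41.3%, beside 36.1%). With at least 1 read in place of 5, 440 of the 1145 could be tested and again none passed.

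Elements under a peak were compared with copies of the same name without a peak, with each name weighted by its number of elements under peaks. In ysE, elements under a peak were at 66.7% and 60.0% (CxF, FxC) and copies without a peak at 71.1% and 62.2%, a mean difference of -3.30 ± 1.60 percentage points (SD, n = 2). The differences were -2.31 (CxF) and 0.934 (FxC) for liver and -1.37 and -3.88 for the EBs. The sign in liver was not the same in both libraries, and with reads pooled over elements the mean difference turned to 3.82 in ysE, so these data give no stable difference. These values take the whole element, including the stretch outside the peak.

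The names differed in this respect. MTD copies under a peak had 28.8% and 25% of their reads methylated in ysE, on 52 and 40 reads, while MTD copies without a peak had 57.7% and 48.9%. They were also lower under a peak in liver (44.7% and 62.0% against 70.2% and 73.5%) and in the EBs (57.3% and 47.0% against 83.6% and 76.3%), on 47 to 89 reads. IAPEy-int copies under a peak had 79.9% and 74.5% in ysE, on 765 and 788 reads. In liver they stood at 89.6% and 90.3%, and in the EBs at 90.6% and 89.4%. IAPEy-int copies without a peak were at 73.5% and 64.6% for ysE, 82.7% and 84.8% for liver, and 89.2% and 87.4% for the EBs, so the copies under peaks stood above the others in all 6 libraries. IAPEY_LTR copies under peaks were at 65.9% and 57.8% for ysE, 87.3% and 87.2% for liver, and 90.8% and 86.1% for the EBs. The IAPEY_LTR copies without a peak stood at 68.4% and 60.0% for ysE, slightly above those under peaks, and liver had the reverse order (84.1% and 83.3% without a peak).

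Genes next to LTR peaks were taken as those with a span within 10 kb of a peak. There were 962 such genes, by 674 of the 1145 peaks, and 921 passed the filter on low counts. Against mesoderm, 159 were higher in E9.25 ysE (17.3%) and 94 lower (10.2%) by edgeR's quasi-likelihood test at an FDR of 5%, beside 13.7% and 16.2% of all 18720 genes tested. Genes within 10 kb of other peaks had 15.6% and 17.2%. Against cystic EBs 290 were higher (31.5%) and 168 lower (18.2%), beside 23.5% and 26.5% of all genes and 26.2% and 25.5% of genes near other peaks. Without the A9 libraries, which unlike those of E9.25 ysE carry the name of the ScriptSeq kit in their labels, 366 were higher (39.7%) and 169 lower (18.3%), beside 29.8% and 26.2% of all genes in that fit, a comparison added after the data were seen. With 1 library left out, the calls against mesoderm fell to 65 to 83 higher (7.1% to 9.05%, beside 5.61% to 8.03% of all genes) and 52 to 65 lower (5.67% to 7.09%, beside 8.93% to 11.8%). Against cystic EBs they fell to 193 higher and 103 lower without ysE A (21.0% and 11.2%, beside 15.8% and 15.5% of all) and to 181 and 102 without ysE B (19.7% and 11.1%, beside 14.5% and 16%). The fit of ysE and mesoderm alone gave 314 higher (35.9%) and 203 lower (23.2%), beside 30.2% and 29.8% of all genes in that fit. A peak near a gene is a matter of position and was not linked to the gene by any test.

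Among the genes with the largest gain in ysE over mesoderm, Rab17, a small GTPase of polarized epithelia, lay 645 bp from a peak led by MLTR14 (chr1:90970318-90970602). This peak was distal by the list of starts. The RNA levels of Rab17 follow. Its level was 35.5 RPKM in both E9.25 ysE libraries, 2.07 and 4.16 in mesoderm, 0.743 to 3.74 in cystic EBs and 58.0 in E12.5 ysE (log2 3.82 against mesoderm, SE 0.72). The neighbours 1190003J15Rik and C330022C24Rik lay within 10 kb of the same RLTR30 peak (chr7:140828060-140828752). 1190003J15Rik had 21.2 and 21.7 RPKM in ysE at E9.25, against 0.568 and 2.2 in mesoderm and at most 0.978 in cystic EBs (log2 4.27 against mesoderm, SE 0.88). 2810459M11Rik (log2 3.90, SE 0.44) had 30.5 and 35.5 RPKM in ysE and 2.0 and 3.47 in mesoderm. Mmd2 (log2 4.21, SE 0.65) had 1.25 and 1.77 RPKM in ysE at E9.25, 19.1 at E12.5, and 0.065 and 0.136 in mesoderm. Ephx4, an epoxide hydrolase, had 8 and 12 reads in ysE and none in mesoderm, with more in cystic EBs (23 to 120). All of these passed the FDR of 5%, Ephx4 not when any of the 4 libraries was left out and C330022C24Rik (log2 4.12, SE 0.91) not without mesoderm A, at 3.41.

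Among the genes with the largest loss in ysE, Mir144, a microRNA of erythroid cells, had 3 and 10 reads in ysE and 247 and 143 in mesoderm, where the erythroid markers above were high. Nnat, an imprinted gene, had 3.45 and 5.20 RPKM in ysE and 157 and 154 in mesoderm (log2 -4.85, SE 0.72), 7988 bp from a peak led by MTE2a. Tmem45a had 0.096 and 0.130 RPKM in ysE and 4.46 and 4.3 in mesoderm (log2 -4.94, SE 0.76). Mgl2, a lectin of macrophages, Cacng7 and the lncRNA 2700046A07Rik had no read in E9.25 ysE and 5 to 35 reads in each mesoderm library. All 6 passed the FDR, but the calls of Mgl2 and 2700046A07Rik were lost whichever library was left out and that of Cacng7 in 2 of 4 such fits.

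Among the genes with the largest gain over cystic EBs, Itih1, which codes for a heavy chain of a plasma protease inhibitor, had 1229 and 2307 reads in E9.25 ysE and 0 to 2 in the cystic EB libraries. Acot4, an acyl-CoA thioesterase, had 12 ± 0.621 RPKM in E9.25 ysE (SD, n = 2) and 0.075 to 0.198 in cystic EBs, with an MT2A peak inside the gene (log2 6.89, SE 0.41). Fmo1, a flavin-containing monooxygenase, had 162 and 164 RPKM in ysE, 42.4 and 46.6 in mesoderm, and 0.426 to 4.29 in cystic EBs (log2 6.72, SE 0.72). Slc39a5, a zinc transporter, had 137 and 171 RPKM in ysE and 1.15 to 2.74 in cystic EBs (log2 6.58, SE 0.41).

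Ugt3a2, a glycosyltransferase, lay 4711 bp from a distal peak that was IAPEY3-int over its whole length (chr15:9330308-9330840). It had 1.32 and 0.945 RPKM in E9.25 ysE, 8.17 in E12.5 ysE, 0.083 and 0.211 in mesoderm, and 0.004 to 0.040 in cystic EBs (log2 6.45, SE 0.95). Acnat1, which conjugates fatty acids with amino acids, spans a distal peak led by RMER10A (chr4:49472740-49473888). It had 5.25 and 4.86 RPKM in ysE, 0.331 and 0.744 in mesoderm, and 0.064 to 0.145 in cystic EBs (log2 6.08, SE 0.43). The RMER10A element itself had 40 and 208 reads in ysE, 8 and 11 in mesoderm, and 4 and 3 in cystic EBs, and since it lies in the gene span its reads and those of the gene cannot be told apart.

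Among the genes with the largest loss against cystic EBs, Lefty2, an inhibitor of Nodal, had 0.007 RPKM in both E9.25 ysE libraries and 2.13 to 6.51 in cystic EBs (log2 -8.97, SE 0.93). Gdf3, a ligand of the TGF-beta family expressed in pluripotent cells, had 2 and 1 reads in ysE and 75 to 989 in cystic EBs. Tex21 and Cacng7 had no read in E9.25 ysE and 40 to 197 and 30 to 289 reads in cystic EBs, and Fam123c had 0 and 2 reads in ysE and 47 to 269 in cystic EBs. Each of these differences was past the FDR of 5% by the same test, with no overlap between groups, and the pluripotency markers above were also high in cystic EBs.

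Of the 52 genes with a start inside an LTR element under a peak, 8 were in the gene table. The level of a gene is that of its transcript with the highest mean count, and whether this transcript begins in the LTR was not tested. The gene spans of Tdrd7 and Apobec1 begin upstream of the LTR element, so these genes also have a start outside it. Nxf7, a member of the nuclear RNA export factor family, had 190 and 197 RPKM in ysE at E9.25 and 169 at E12.5. The mesoderm libraries had 13.7 and 25.6, cystic EBs 13.8 to 71.7, and liver 0.437 and 0.225. Both ysE stages were above every other library (log2 3.61 against mesoderm, SE 0.74, and 2.76 against cystic EBs, SE 0.56, both past the FDR of 5%). Without mesoderm A the difference from mesoderm was 3.21 and no longer passed. The MT2C_Mm element at its start had 105 and 2694 reads in the ysE libraries, 99 and 251 in mesoderm, and 141 and 224 in cystic EBs. The ysE libraries thus differed widely in the reads of the element and closely matched in the level of the gene.

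Tfpi2, an imprinted inhibitor of serine proteases, had 8.49 and 6.89 RPKM in ysE at E9.25 and 16.7 at E12.5. Levels elsewhere were 1.78 and 1.91 (mesoderm), 1.54 and 1.99 (liver) and 0.115 to 0.637 (cystic EBs). The log2 difference was 2.38 from mesoderm (SE 0.70) and 5.17 from cystic EBs (SE 0.61), both past the FDR. Its RMER5 element had 26 and 33 reads in ysE, 0 and 7 in mesoderm, and 2 and 0 in cystic EBs, with no call. Tdrd7, a Tudor domain protein of RNA granules, had 14.1 and 14.0 RPKM in ysE at E9.25 and 49.5 at E12.5. Levels elsewhere were 6.55 and 6.47 (mesoderm), 1.59 and 1.96 (liver) and 3.15 to 10.7 (cystic EBs). The log2 difference was 1.43 from mesoderm (SE 0.46) and 1.57 from cystic EBs (SE 0.38), both past the FDR. Its MLT1A0 element had 128 and 179 reads in ysE, 16 and 13 in mesoderm, and 4 and 24 in cystic EBs, with no call in either comparison. Fubp3 passed the test against mesoderm (log2 0.90, SE 0.29) and not against cystic EBs. The calls of Tfpi2, Tdrd7 and Fubp3 against mesoderm were lost whichever of the 4 libraries was left out, with log2 differences of 2.18 to 2.52, 1.38 to 1.45 and 0.79 to 1.02. The calls of Tfpi2 and Tdrd7 against cystic EBs were kept in all 6 such fits.

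Klhl23 was lower in ysE, at 0.510 and 0.441 RPKM against 4.32 and 3.72 in mesoderm and 3.81 to 8.12 in cystic EBs (log2 -2.76, SE 0.36, and -3.29, SE 0.35). Apobec1, the deaminase that edits the mRNA of apolipoprotein B, had 0.023 and 0.033 RPKM in E9.25 ysE and 0.385 to 0.965 in cystic EBs (log2 -4.18, SE 0.60), and 0.146 and 0.078 in mesoderm with no call. The RLTR19-int element at its start had 175 and 718 reads in ysE, 47 and 54 in mesoderm, and 55 and 11 in cystic EBs, the reverse order of the gene, with no call. The peak over this element (chr6:122601666-122603061) is also the LTR peak nearest to Gdf3. E330020D12Rik differed from cystic EBs by a log2 of -2.76 (SE 0.95), a call lost without either ysE library (-3.14 and -2.52) or d15 A (-2.26), and Naip2 passed neither test.

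**Figure D4:**
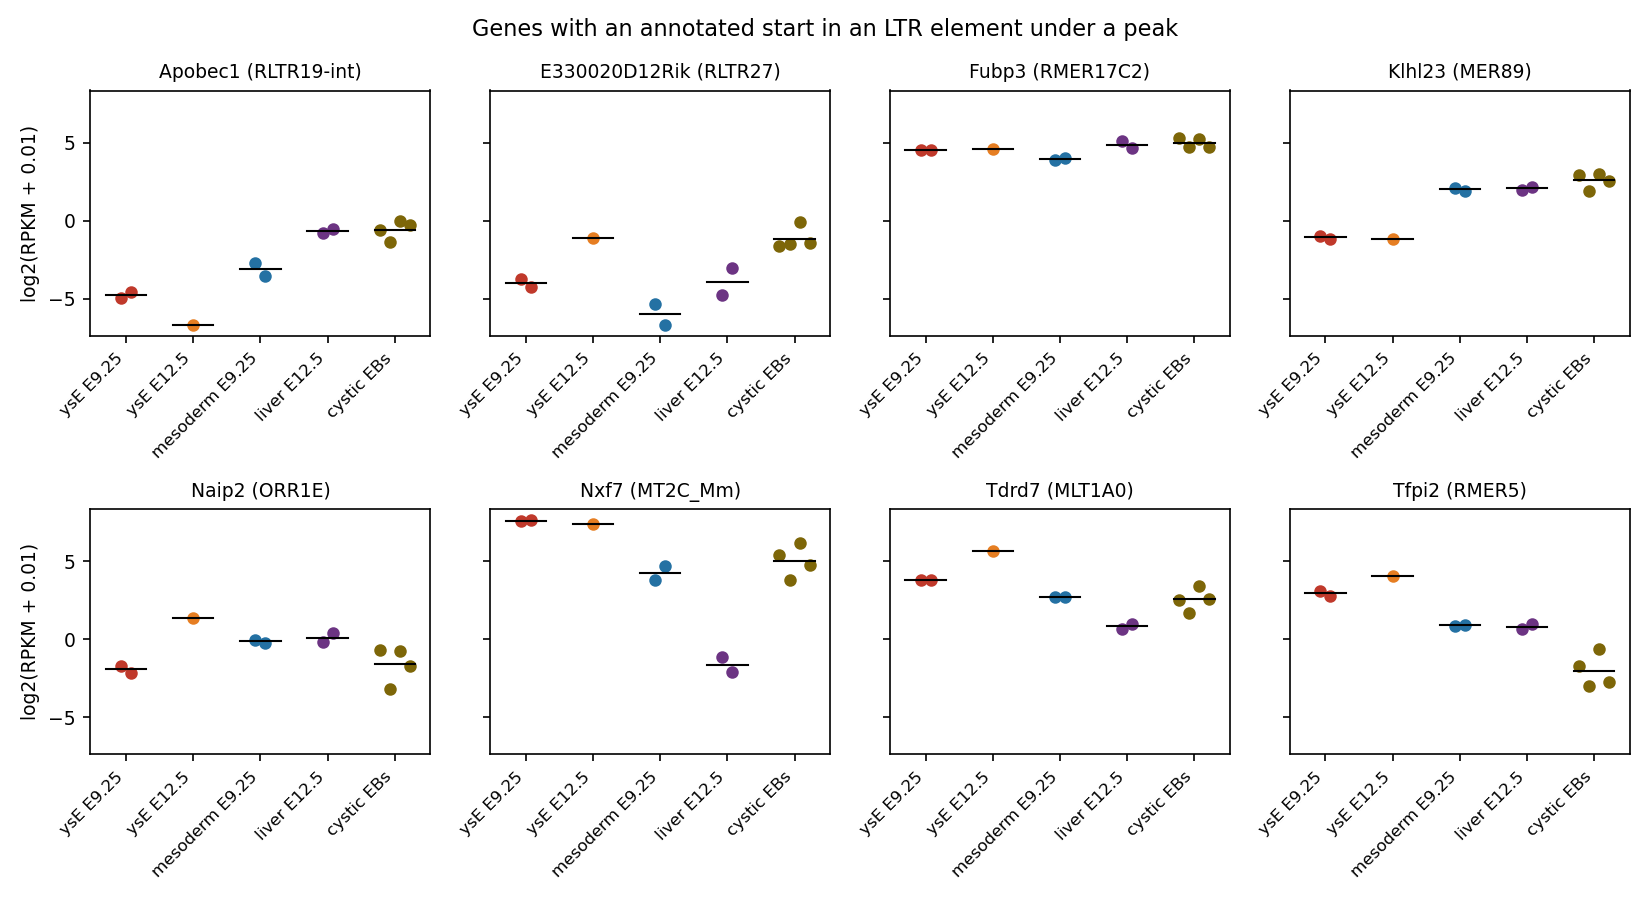
Level of the 8 genes with an annotated start in an LTR element under a peak, 1 transcript per gene,, as log2(RPKM + 0.01), with 1 point per library, a bar at the mean of each group and the element in brackets. Nxf7, Tdrd7 and Tfpi2 were higher in both E9.25 ysE libraries than in mesoderm, with calls against mesoderm that were lost for Tdrd7 and Tfpi2 on leaving out any library, Klhl23 was lower in ysE than in mesoderm and cystic EBs, and Apobec1 was lower than in cystic EBs.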

How the data were processed

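The authors aligned RNA and ChIP reads with GSNAP to mm10 and called H3K4me3 peaks on 1 library against input with MACS 1.4.2, depositing a score of -10 log10 p per peak. They deposited raw read counts per repeat element and per RefSeq transcript, RPKM per transcript, and percent methylation with the number of reads per CpG (BisSNP, low coverage settings). How reads with several positions and strand were handled for repeats is not given in the sources used here. In the repeat table the header is shifted, with the class under the heading for the matching repeat. The bisulfite data used here held no calls on chromosomes 19, X and Y, nor on chromosome 15 in liver, and chromosome 13 was nearly empty. Peaks without calls have no methylation value.

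Overlaps were computed in Python 3.11.15 (pandas 2.3.3, numpy 2.4.6, scipy 1.17.1; figures with matplotlib 3.10.9). Counts of all 2634743 repeat elements and of all transcripts were filtered with filterByExpr, scaled with TMM and tested with edgeR 4.0.16 (R 4.3.3, quasi-likelihood, Benjamini-Hochberg over all elements or transcripts tested, FDR 5%). Spread was shared over 3 tissues for elements and 5 groups for genes. Methylated reads were percent times reads, rounded, summed per peak with at least 5 reads in every library, and tested the same way with a coefficient per library. Start sites, gene spans and sequences came from RefSeq (GRCm38.p6). The list of start sites lacked at least that of Lefty2, so the label distal means distal from the listed starts. Of 23337 gene symbols, 22821 had coordinates. A gene was its transcript with the highest mean count. Tests were checked on simulated data. For elements and methylation the simulated spread was smaller than the fitted one, so the check does not show how these tests do at the real spread. Exact intervals and the floor of 3 counts over a group cover counting error only. A litter was pooled per animal sample, and the 2 cystic EB libraries of a clone are cultures of 1 clone, so p-values measure the spread between these samples.

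Named were the 12 names with the most elements and the 6 with the highest ratio among names with at least 5, the 6 peaks with the highest listed score, the 6 elements and 6 genes with the largest difference in each direction past the FDR without overlap, and the 6 elements with the most reads. No LTR peak passed the methylation test, so none was named by it. Genes and sequences at LTR starts, IAPEz-int, the IAPEY4_I-int copies, the chr3 run of elements and the repeat names in the methylation account were named after their values were seen. Members and lists were chosen with earlier results of these data known. Alternatives were other scalings, filters, overlaps, coverage minima, DESeq2 1.42.0, a replicate block and leaving out each library.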

Additional observations from a re-analysis of the deposited data

Results flagged for a closer look

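Among 30 groups of 4 cystic EB libraries, 1 per named or LTR-start gene, 2 held a library far from the other 3 by Dixon's criterion at 95%, where chance gives about 1 in 20. The lncRNA 2700046A07Rik, next to an RLTR16B_MM peak, had 0.578 RPKM in the d10 A library and 0.106 to 0.170 in the other 3. E330020D12Rik, with a start in an RLTR27 element under a peak, had 0.946 RPKM in d15 A and 0.324 to 0.365 in the others. Both libraries are of the A9 clone, while the other A9 library of each gene lay with the JN libraries.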

How the results depend on the processing

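The number of LTR peaks was 661 with an overlap of 200 bp, 325 with an overlap of 50% of the peak and 472 among the upper 50% by score. Under an overlap of 50% of the peak, the upper scores and the share of base pairs, the ratio of shares was 1.85, 0.99 and 0.981 for ERVK and 0.473, 1.32 and 1.29 for ERVL. For ERV1 it was 3.16 (upper scores) and 1.98 (base pairs), and for MaLR 0.248 (50% of the peak) and 0.621 (base pairs).

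Elements higher in ysE than in mesoderm numbered 15 with RLE size factors (2.43%, beside 1.22% of all elements tested) and 16 without repeats of RNA genes (2.59%, beside 1.58%). They numbered 97 of 1369 with no filter (7.09%, beside 1.36%) and 142 with DESeq2 (23.0%, beside 11.3%). With only the 2 groups there were 0, here and over all elements. Lower elements numbered 14 with no filter (1.02%, beside 0.348% of all), 24 with DESeq2 (3.89%, beside 3.17%) and 0 with the 2 groups (0 of all). Against cystic EBs the fit without repeats of RNA genes gave 116 higher (18.8%, beside 9.42% of all). DESeq2 gave 175 higher (28.4%, beside 16.9%) and 35 lower (5.67%, beside 7.23%). The fit of 2 groups gave 29 of 577 lower (5.03%, beside 8.01%). Without 1 library all 4 counts were 0 to 0, with 135 to 193 higher against mesoderm at an unadjusted p under 0.05 (18.1% to 27.4%, beside 8.33% to 11.8% of all elements in these fits). RLE shifted the median of all elements by 0.22 log2 against mesoderm and 0.11 against cystic EBs. IAPEy-int stayed above 0 in 31 of 32 copies and IAPEY4_I-int below 0 in 11 of 11 against mesoderm under both scalings. The cause of these changes was not tested.

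The replicate block gave 0 in all 4 element counts, with 151 and 45 (mesoderm) and 180 and 63 (cystic EBs) higher and lower at an unadjusted p under 0.05 (24.5%, 7.29%, 29.2% and 10.2%, beside 12.3%, 8.02%, 16.3% and 12.6% of all). Deviations of same-numbered libraries correlated at 0.0201 over elements, -0.112 over genes of ysE and mesoderm, and 0.126, -0.00158 and -0.245 over methylation. These values give no sign that the numbers pair the samples. Counts per element were low and the methylation values rest on 59 peaks, so whether samples are paired is not settled. For genes the replicate block was fitted without the single E12.5 ysE library, so these fits changed the block and the libraries together. Of 902 genes, 178 were then higher and 98 lower than in mesoderm, beside 15.2% and 17.6% of all genes in that fit. Against cystic EBs there were 316 and 169, beside 26.3% and 27.3% of all. With crossed numbers, chosen after seeing the data and also without that library, 178 and 99 were higher and lower than in mesoderm.

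For genes, the fit of 2 groups gave 314 and 203 against mesoderm, beside 30.2% and 29.8% of all genes in that fit. Within 50 kb there were 381 and 258 against mesoderm and 678 and 451 against cystic EBs. These are among 2490 genes before the filter on low counts, where 10 kb gave 962, so the counts grow with the number of genes taken. In the main fit, all genes tested had 13.7% higher and 16.2% lower against mesoderm, and 23.5% and 26.5% against cystic EBs. These shares do not apply to the other fits. Without 1 library, counts ran from 65 to 83 and 52 to 65 against mesoderm and from 181 to 304 and 102 to 172 against cystic EBs. Against cystic EBs, 2 genes that passed no test there changed sign. Fubp3 (log2 -0.04) ran from -0.14 (without ysE A) to 0.05 (without d10 A), with 0 without d15 A, and was 0.36 with only clone JN, an alternative chosen after seeing the data. Naip2 (-0.16) ran from -0.48 (without d10 B) to 0.11 (without d10 A), was 0.08 without d15 A, -0.47 and 0.02 without ysE A and B, and 0.98 with only JN. Leaving out either ysE library gave the low counts against cystic EBs (193 and 181 higher, 103 and 102 lower).

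The difference of methylation medians was -33.5 points from liver with at least 20 reads and -30.8 to -23.6 without 1 library. From cystic EBs it was -39.8 with at least 1 read, -40.2 with 20, -30.5 within the LTR only, and -37.9 to -33.6 without 1 library. No LTR peak passed the test under any of these settings. The difference between copies with and without a peak was -7.54 (at least 1 read), -0.772 (20) and 3.82 (pooled reads) in ysE, -11.4, 1.25 and 2.26 in liver with 2.35 at 10 reads, and -7.78, -0.116 and 0.944 in cystic EBs with -0.297 at 10. Without 1 library it ran from -4.43 to -2.17, -2.31 to 0.934 and -3.88 to -1.37. Of the 1145 peaks, 143 had the reads in every library to be tested one by one.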
